A study of Macaca mulatta with 30 samples.

Results

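The genes of oxidative phosphorylation were followed in 5 tissues of the rhesus macaque (Macaca mulatta). They were chosen by name: the 13 protein genes of mitochondrial DNA, and nuclear genes whose symbol begins with NDUF, UQCR or ATP5, is SDHA, SDHB, SDHC or SDHD, or names a subunit of cytochrome c oxidase. A nuclear gene had to reach 1 TPM (an abundance per transcript, corrected for its length, on a scale that sums to 1000000 in each library) in at least 6 of 30 libraries. Of 87 nuclear names in the table, 82 passed, which gave 95 genes among 13550 that passed the same filter and 21292 in the table. The rule used no measured contrast between tissues, but it was set with earlier results of these data known. The 5 nuclear names that did not pass were ATP5MC3, NDUFS5, COX7B2, COX7C and COX6B2. ATP5MC3 was listed at 0 in every library. The highest values were 0.888 TPM for NDUFS5, 1.22 TPM for COX7B2, 2.01 TPM for COX7C and 3.07 TPM for COX6B2. These values alone do not show that the genes are little expressed, and how they were annotated was not tested. No row was named COX5B, COX6A1, COX7A2, UQCRB, UQCR10 or UQCRFS1, so the sums below lack rows of these names.

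Oxidative phosphorylation is carried out in the inner mitochondrial membrane. Complex I (NADH dehydrogenase) and complex II (succinate dehydrogenase) feed electrons to ubiquinone, complex III (the cytochrome bc1 complex) passes them to cytochrome c, complex IV (cytochrome c oxidase) reduces oxygen, and complex V (ATP synthase) uses the proton gradient to make ATP. Complexes I, III, IV and V are built from subunits of both genomes, and complex II from nuclear subunits only. Mitochondrial genes are transcribed inside the organelle as long polycistronic RNAs, whereas the nuclear subunits are transcribed singly, translated in the cytosol and imported. Liver relies heavily on respiration for its metabolism, and the exocrine cells of pancreas and salivary glands give much of their messenger RNA to a few secreted proteins.

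By genome and complex, the mitochondrial members were 7 of complex I (ND1 to ND6 and ND4L), 1 of complex III (CYTB), 3 of complex IV (COX1 to COX3) and 2 of complex V (ATP6 and ATP8). The nuclear members were 38 of complex I, 8 complex I assembly factors (the NDUFAF genes, which are not part of the finished complex), 4 of complex II, 5 of complex III, 10 of complex IV and 17 of complex V. NDUFA4 and NDUFA4L2 were counted with complex I by name, although NDUFA4 protein is now assigned to complex IV. For SDHD, the RefSeq gene table lists a second protein-coding locus under the same name, so reads may be shared between copies. Many of these nuclear genes are known to have processed pseudogenes, and the pairs ATP8 and ATP6, and ND4L and ND4, each share a transcript, while ND6 lies on the other strand. How reads of such neighbours were divided is not given in the sources used here.

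Libraries came from parotid, submandibular and sublingual salivary glands, pancreas and liver of the same 6 untreated animals, 4 females and 2 males, with 1 library per tissue and animal. RNA was extracted from frozen tissue sections. The parotid of animal 3 was a right gland and the other salivary samples were left glands. Neither ages nor sequencing depths are given in the sources used here.

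Summed tissue markers set several libraries apart. In the pancreas library of animal 4, 9 pancreatic enzyme genes summed to 3804 TPM, against 170954 to 363364 TPM in the other 5. In its submandibular library, 9 salivary genes summed to 2297 TPM, against 225608 to 340124 TPM. Both libraries also held the highest sums of 6 fat markers, 18013 and 7840 TPM, against at most 1700 TPM elsewhere. Their sums of 4 blood markers were also the highest, 6001 and 5844 TPM, against at most 2262 TPM. Liver libraries held 1314 to 4461 TPM of the pancreatic genes and 6224 to 9146 TPM of the salivary genes. The pancreas library of animal 4 thus lay within the liver range, and its submandibular library lay below every liver library. Summed over 11 genes of skeletal muscle, the level reached 119705 TPM in the parotid of animal 6, and 13025 and 31836 TPM in the sublingual glands of animals 1 and 5. The parotid of animal 1 held 9141 TPM of muscle markers, and the remaining 26 libraries held at most 1049 TPM. All muscle, fat, liver, salivary and pancreatic markers in the table were above 0 in every library. The sublingual library of animal 4 held 5511 TPM of the salivary genes, against 38098 to 369833 TPM in the other 5. That was also below every liver library. Results are given below without the 2 libraries of animal 4 (pancreas and submandibular gland) as well. Its sublingual library was kept in every fit that set libraries aside by their markers. In bulk tissue, fewer cells of a type and less RNA per cell cannot be told apart.

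Mitochondrially encoded transcripts were most abundant in liver. There, the 13 genes summed to 246847, 104811, 195697, 216456, 170013 and 137694 TPM in animals 1 to 6, a mean of 17.9% of all TPM (SD 5.21, n = 6). In pancreas the sums were 34840, 34695, 86968, 140910, 59031 and 51570 TPM, and the highest was in the library of animal 4. Pancreas was below liver in 6 of 6 animals, by 1.53 ± 0.73 (SD) on the log2 scale. Parotid gave 36699, 26443, 31496, 53165, 66875 and 120594 TPM, the last in the library with muscle markers. Submandibular gland gave 36717, 29522, 33274, 95800, 38358 and 49749 TPM. Both glands overlapped pancreas and were below liver in 6 of 6 animals. Sublingual gland gave 168393, 112771, 87391, 63011, 165007 and 31748 TPM and overlapped every other tissue.

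The nuclear members summed to far less, and their tissues separated differently. Liver held 21724, 20797, 23251, 24000, 19938 and 18590 TPM, the tightest group, at 2.14% of all TPM (SD 0.203, n = 6). Sublingual gland was in the same range, with 31097, 15491, 17174, 23367, 23865 and 21783 TPM. The log2 difference between these tissues was 0.02 ± 0.39 (SD) within animals, 3 of 6 higher in sublingual gland. Pancreas gave 7224, 6688, 13289, 31681, 8956 and 5926 TPM. Parotid gave 6400, 5101, 4244, 6223, 4100 and 24970 TPM, and submandibular gland 5973, 4710, 5525, 23591, 6243 and 5833 TPM. In each of these 3 tissues a single library was far above the others, and each was one that stood apart in tissue markers. Without them the means were 5214 ± 1074 TPM (parotid), 5657 ± 589 TPM (submandibular gland) and 8417 ± 2943 TPM (pancreas; SD, n = 5). Every one of those libraries was below the lowest liver library.

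**Figure D1:**
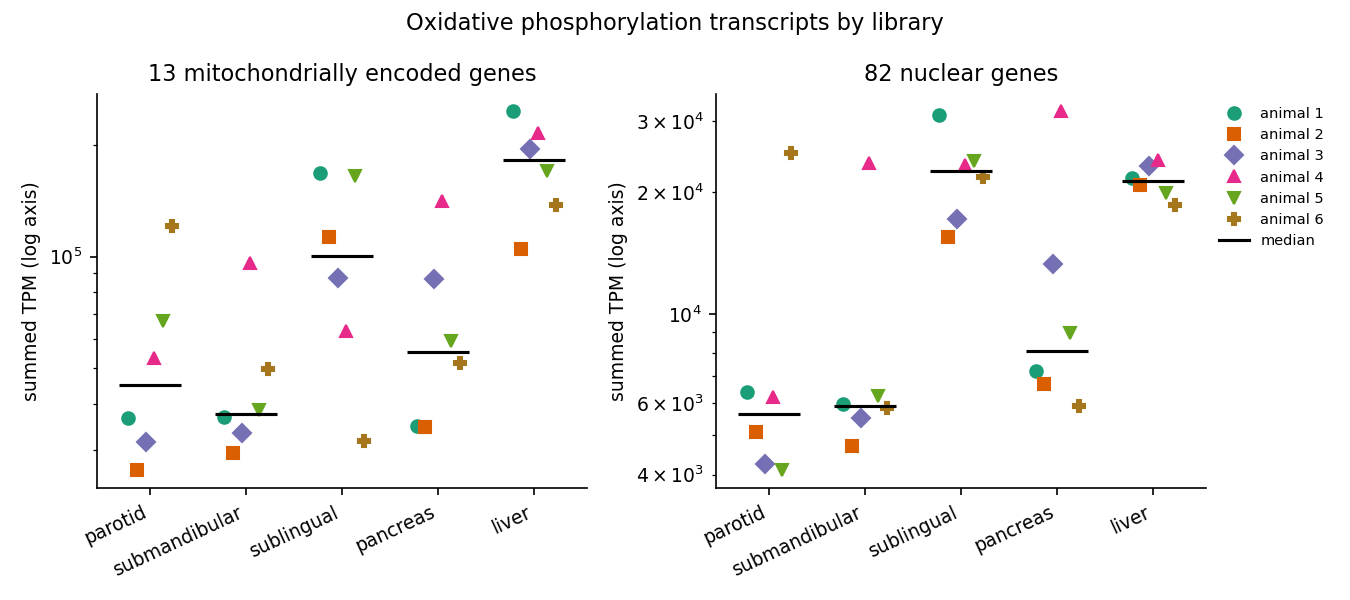
Summed TPM of the 13 mitochondrially encoded genes (left) and the 82 nuclear genes (right) in each of 30 libraries, on log axes, with animals marked by symbol and the tissue median as a bar. The nuclear sums of parotid and submandibular gland lie between 4100 and 6400 TPM except for 1 library each, at 24970 TPM in the parotid of animal 6 and 23591 TPM in the submandibular gland of animal 4.

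TPM is a share of a fixed total, and that total was filled very differently. The 10 most abundant genes of a library, members included, took 23.7% of all TPM in liver and 40.2% in pancreas (means of 6). They took 72.2% in parotid, 65.3% in the submandibular and 37.0% in the sublingual gland. In the liver of animal 1 they took 27.0%, and the 13 mitochondrial genes took 24.7%. With members left out, the 100 most abundant genes took 39.4% in liver and 67.9% in pancreas. In parotid, submandibular and sublingual gland they took 79.8%, 75.3% and 54.5%. In the 5 submandibular libraries with sums of at most 6243 TPM, these 10 genes took 73.5 to 78.9%, and in the library of animal 4 they took 11.1%. The nuclear sum did not follow this share in every tissue. The sublingual gland of animal 6 held 21783 TPM with a share of 52.5%, whereas the pancreas of animal 1 held 7224 TPM with 49.6%. To set this aside, the nuclear sum was also expressed per 1000000 TPM left after removing the 13 mitochondrial genes and the 100 most abundant other genes of each library, a measure added after the data had been seen. On that scale the tissues overlapped. Parotid held 51301 ± 17395, submandibular gland 47107 ± 5284, pancreas 45314 ± 7740 and liver 50563 ± 8748 (SD, n = 6). Sublingual gland was highest, at 63585 ± 11177. It exceeded submandibular gland in 6 of 6 animals and parotid and pancreas in 5 of 6 each. The difference between pancreas and liver in the nuclear sum shrank from -1.07 ± 0.80 to -0.16 ± 0.19 on the log2 scale (SD, n = 6), with 5 of 6 animals lower in pancreas on both scales. For the mitochondrial sum it shrank from -1.53 ± 0.73 to -0.61 ± 0.68. On the rescaled measure the mitochondrial sum of parotid exceeded that of pancreas in 6 of 6 animals, by 0.45 ± 0.41 (log2). In TPM this difference was -0.30 ± 1.03, with 3 of 6 animals higher in parotid. Submandibular and sublingual gland each exceeded pancreas in 3 of 6 animals on the rescaled measure.

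The ratio of the mitochondrial to the nuclear sum does not depend on the library total. It was 11.4, 5.04, 8.42, 9.02, 8.53 and 7.41 in liver, and 4.82, 5.19, 6.54, 4.45, 6.59 and 8.70 in pancreas, animals 1 to 6. Submandibular gland gave 6.15, 6.27, 6.02, 4.06, 6.14 and 8.53, and parotid 5.73, 5.18, 7.42, 8.54, 16.3 and 4.83. Sublingual gland gave 5.42, 7.28, 5.09, 2.70, 6.91 and 1.46, with the lowest ratio of all 30 libraries in animal 6. All tissues overlapped. Against pancreas, the log2 ratio differed within animals by 0.30 ± 0.76 in parotid (4 of 6 higher), 0.04 ± 0.21 in submandibular gland (2 of 6 higher) and -0.49 ± 1.11 in sublingual gland (3 of 6 higher). From liver to pancreas it differed by -0.45 ± 0.58, with 4 of 6 animals lower in pancreas (all SD, n = 6). Each mean difference was smaller than its SD, which does not show that the ratios were alike. No p-value is given for a sum over chosen genes. Among the other pairs of tissues, the largest mean differences involved sublingual gland. Sublingual minus liver was -0.94 ± 1.02 (5 of 6 lower), and parotid minus sublingual was 0.79 ± 0.90 (5 of 6 higher). The submandibular ratio lay within 0.35 of the pancreatic ratio of the same animal on the log2 scale in all 6 animals.

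**Figure D2:**
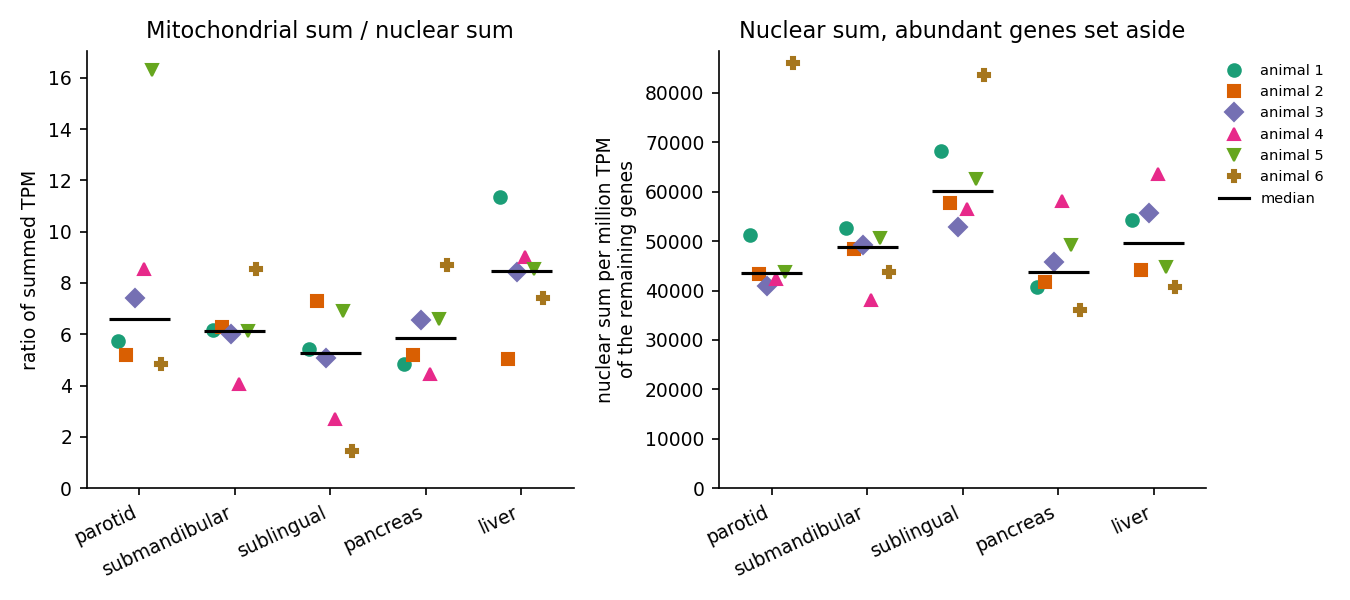
Ratio of the mitochondrial to the nuclear sum (left) and nuclear sum per 1000000 TPM of the remaining genes (right) in 30 libraries, with the tissue median as a bar. Ratios of the 5 tissues overlap, with extremes of 16.3 in the parotid of animal 5 and 1.46 in the sublingual gland of animal 6. On the right, sublingual gland has the highest median.

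The genes with the largest and the smallest share of the mitochondrial sum were the same in every tissue. COX2, the copper-binding core subunit of complex IV, was the most abundant member in every tissue, with 21.7 ± 1.82% of the sum in liver, 20.8 ± 2.03% in pancreas, 20.1 ± 1.19% in parotid, 20.1 ± 1.16% in the submandibular and 20.2 ± 0.929% in the sublingual gland (SD, n = 6). In TPM it averaged 38724.5, 13726, 10983, 9336 and 20915 in the same order. ND5, a proton-pumping subunit of complex I, was the least abundant in every tissue, at 1.41 to 2.17% (means of 6). CYTB, the complex III member, took 11.3 to 12.2% in 4 tissues and 9.41 ± 2.32% in sublingual gland. COX3 took at most 12.2%, COX1 7.64 to 8.99%, ND4 6.67 to 8.45%, ND1 5.03 to 5.88% and ND2 4.99 to 5.97%. ND6 took 4.17 to 5.51%, ATP8 3.28 to 4.48% and ND4L 2.81 to 4.68%.

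In percentage points, the mean shares of ND3 and ATP6 varied most between tissues. ND3, a small subunit near the quinone site of complex I, took 2.65, 2.81, 3.02, 2.85, 4.80 and 2.24% of the mitochondrial sum in liver. In pancreas it took 5.70, 5.83, 5.53, 3.69, 9.78 and 4.60%, higher than liver in 6 of 6 animals by 2.79 ± 1.34 percentage points (SD). Its share was higher than in liver in 6 of 6 animals in parotid, submandibular and sublingual gland as well. ATP6, the proton channel subunit of ATP synthase, took 13.3 ± 4.37% in sublingual gland and 8.39 to 9.92% in the other tissues (means of 6). The sublingual library of animal 6 stood at the edge for several genes: ATP6 took 21.5% and ND3 11.6% there, while CYTB took 5.17%, ND4L 1.34% and ND5 0.623%.

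**Figure D3:**
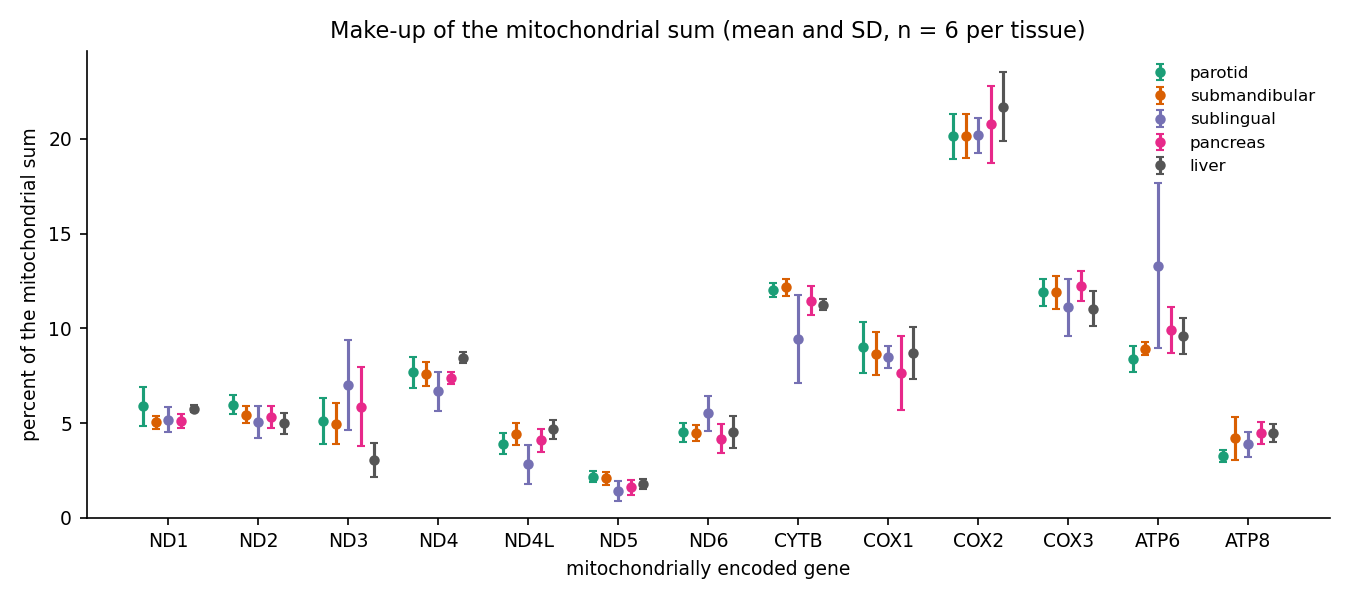
Share of each of the 13 genes in the mitochondrial sum, mean and SD over 6 animals, with tissues by colour. COX2 is near 20% in every tissue, ND3 is lowest in liver (3.06%), and ATP6 is highest in sublingual gland (13.3%).

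Tests were run with limma on log2(TPM + 1) over all 13550 genes, with tissue and animal as terms, and a gene was called at an adjusted p below 0.05. Fold changes of genes with low TPM are understated on this scale. The study names 4 primary comparisons: each salivary gland against pancreas, and pancreas against liver. The first 3 share the pancreas libraries with each other and with the fourth.

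Pancreas against liver gave the clearest difference. Of the 13 mitochondrial genes, 12 were lower in pancreas and none was higher, 92.3% of them. They were lower by 1.37 (COX3, SE 0.43, adjusted p = 0.0166) to 1.74 (COX1, SE 0.45, adjusted p = 0.00375) on the log2 scale, in 6 of 6 animals each. ND3 was the exception, at -0.62 (SE 0.36, adjusted p = 0.208), although it was lower in pancreas in all 6 animals. Of the 82 nuclear members, 34 fell (41.5%) and 2 rose (2.44%), whereas under quantile normalisation 6 were lower and 9 higher (17.9% and 21.9% of all genes). On TPM as deposited, 23.6% of all genes were called lower and 6.76% higher in pancreas. The median log2 fold change was -1.59 for the mitochondrial members, -1.02 for the nuclear members and -0.36 for all genes.

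With trimmed-mean scaling, which brought the median of all genes to 0.01, the same 12 mitochondrial genes stayed lower in pancreas. Of the nuclear members 24 were then lower and 2 higher, all of them among the 36 called on TPM as deposited, against 20.1% lower and 16.6% higher of all genes. The nuclear median was -0.51 and the mitochondrial median -1.08. Without the 2 libraries of animal 4, the 12 mitochondrial genes were lower again, and 68 nuclear members were lower and 2 higher, against 41% and 7.74% of all genes. Without 5 libraries (those 2, the parotid of animal 6 and the sublingual glands of animals 1 and 5), 75 nuclear members were lower and 2 higher, against 45.7% and 9.12% of all genes. Leaving out each animal in turn gave 11 to 68 nuclear members (9 lower and 2 higher at the low end, without animal 2; 66 lower and 2 higher without animal 4). It gave 6 mitochondrial genes without animal 1 and up to 12 otherwise.

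The nuclear genes that fell in pancreas came from every complex: 19 of 38 in complex I, 3 of 8 complex I assembly factors, 2 of 4 in complex II, 1 of 5 in complex III, 3 of 10 in complex IV and 6 of 17 in complex V. UQCRQ, a small subunit of complex III, had the highest mean of the nuclear members over all libraries. It stood at 2695, 1885, 2816, 2977, 1589 and 1694 TPM in liver and at 477, 409.5, 695, 1346, 485 and 392 TPM in pancreas. The 2 tissues did not overlap, and the log2 fold change was -1.95 (SE 0.39, adjusted p = 0.000309, lower in 6 of 6 animals). ATP5PD, subunit d of the peripheral stalk of ATP synthase, had 363, 338, 405, 487, 359 and 325 TPM in liver and 68.5, 62.7, 113, 380, 91.8 and 65.9 TPM in pancreas. Only the pancreas library of animal 4 reached the liver range, and the log2 fold change was -1.87 (SE 0.39, adjusted p = 0.000557, lower in 6 of 6 animals). NDUFS8, an iron-sulphur core subunit of complex I, had 96.6 to 121 TPM in liver and 20.1 to 45.6 TPM in the pancreas of 5 animals, with 107 TPM in animal 4. Its log2 fold change was -1.65 (SE 0.40, adjusted p = 0.00204, lower in 6 of 6 animals).

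The 2 nuclear genes that rose in pancreas over liver were both tied to complex IV. COX4I2, the isoform of subunit 4 known from lung and from low oxygen, had 0.546, 1.56, 4.24, 23.9, 3.15 and 1.05 TPM in pancreas and 0.444, 0.127, 0.977, 1.31, 0.654 and 0 TPM in liver. Its log2 fold change was 1.41 (SE 0.39, adjusted p = 0.00635, higher in 6 of 6 animals), and 0.96 (adjusted p = 0.0109) without the libraries of animal 4. COX7A2L, which helps join complexes III and IV into supercomplexes, had 119, 24.8, 111, 93.8, 113 and 71.3 TPM in pancreas and 19.7, 49.8, 33.8, 19.9, 42.2 and 35.8 TPM in liver. Animal 2 alone went the other way, and the log2 fold change was 1.30 (SE 0.39, adjusted p = 0.012).

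In sublingual gland against pancreas, 16 of 82 nuclear members rose (19.5%) and none fell on TPM as deposited, beside 10.4% of all genes higher and 3.51% lower. Under quantile normalisation 6 were higher and 1 lower, beside 10.7% higher and 12.5% lower of all genes, with a nuclear median of 0.30 and a mitochondrial median of 0.87. The mitochondrial genes gave 0 calls in limma in either direction, with 3 at an unadjusted p below 0.05 and 3 called higher under quantile normalisation. On TPM as deposited the medians were 0.95 for nuclear members, 0.52 for mitochondrial members and 0.23 for all genes. The 16 were 7 subunits of complex I, 4 of complex IV and 5 of complex V, and none belonged to the assembly factors, complex II or complex III. Among those higher in 6 of 6 animals, COX7B, a small subunit of complex IV, rose most, from 109, 136, 250, 583, 146 and 85.2 TPM in pancreas to 918, 307, 297, 770, 364 and 335 TPM in sublingual gland. Its log2 fold change was 1.36 (SE 0.42, adjusted p = 0.0301), the groups overlapping only at the pancreas library of animal 4. ATP5F1E, the epsilon subunit of ATP synthase, averaged 1066 ± 272 TPM in sublingual gland and 511 ± 343 TPM in pancreas (SD, n = 6), a log2 fold change of 1.24 (SE 0.35, adjusted p = 0.0169). NDUFB11, a membrane-arm subunit of complex I, averaged 99.6 ± 26.2 and 50.4 ± 26.2 TPM, a log2 fold change of 1.04 (SE 0.33, adjusted p = 0.0325).

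This count depended on which libraries were fitted. It was 0 when only the 12 libraries of these tissues were fitted, and between 0 (without animal 1 or animal 2) and 58 (without animal 4) when each animal was left out. Without the 2 libraries of animal 4, 64 nuclear members were higher and 0 lower, the earlier 16 among them, against 28.3% and 5.31% of all genes. In that fit 4 mitochondrial genes also rose: ND6 by 1.22, ATP6 by 1.22, COX1 by 1.13 and ND3 by 0.98 on the log2 scale. Without the 5 libraries 53 nuclear members and 1 mitochondrial gene, ATP6, were higher and none was lower, against 18.7% and 6.69% of all genes. With trimmed-mean scaling 27 nuclear members were higher and 1, COX7A2L, lower, against 11.3% and 10.2% of all genes. The muscle marker sums of the sublingual libraries of animals 1 and 5 went with the highest mitochondrial sums of that tissue (168393 and 165007 TPM), and their part in this comparison was not tested.

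Few nuclear members were called in parotid and submandibular gland against pancreas when all libraries were fitted. In parotid 4 of 82 nuclear members fell (4.88%) and none rose, beside 13.6% of all genes lower and 2.24% higher. In submandibular gland 2 fell (2.44%), beside 7.46% lower and 2.25% higher. No mitochondrial gene was called in either gland by limma, and none had an unadjusted p below 0.05, whereas under quantile normalisation 3 were higher in parotid. That normalisation gave 3 nuclear members higher and 2 lower in parotid, beside 9.15% and 9.48% of all genes, and 0 higher and 1 lower in submandibular gland, beside 9.41% and 9.14%. The medians of the nuclear members, -0.44 and -0.36, lay next to those of all genes, -0.48 and -0.33, and turned to 0.29 and 0.18 with trimmed-mean scaling. With that scaling 2 nuclear members were lower and 0 higher in parotid, beside 8.75% and 8.39% of all genes. In submandibular gland 0 were called, beside 8% lower and 8.13% higher, with 6 at an unadjusted p below 0.05. Without the 2 libraries of animal 4 the counts were 2 lower in parotid (16% of all genes lower, 3.33% higher) and 8 lower in submandibular gland (25.6% lower, 3.74% higher). Leaving out animal 6, whose parotid library held the muscle markers, gave 34 nuclear members lower and 0 higher in parotid, beside 18% and 2.16% of all genes. Without the 5 libraries 31 were lower in parotid, beside 29.8% of all genes lower and 3.76% higher. In submandibular gland 29 were lower, beside 34.7% lower and 4.66% higher, and no member was higher in either gland. Leaving out any other single animal gave at most 3 in parotid. In submandibular gland the range was 0 to 7.

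COX7A2L fell in both glands. It had 16.4, 23.2, 21.5, 17.6, 11.2 and 31.2 TPM in parotid, below the pancreas of the same animal in 6 of 6, with a log2 fold change of -1.99 (SE 0.39, adjusted p = 0.000675). In submandibular gland it had 27.1, 22.5, 26.8, 101, 29.8 and 31.0 TPM, with a log2 fold change of -1.20 (SE 0.39, adjusted p = 0.0498) that was lost with trimmed-mean scaling. SDHD, the membrane anchor of complex II, had 206, 187, 220, 382, 246 and 545 TPM in parotid. In the submandibular gland it had 183, 162, 185, 1227, 220 and 290 TPM, and in pancreas 417, 349, 1520.1, 1501, 831 and 451 TPM. The log2 fold changes were -1.36 (SE 0.39, adjusted p = 0.0196, lower in 5 of 6 animals) and -1.36 (SE 0.39, adjusted p = 0.0248, lower in 6 of 6). Both calls were lost with trimmed-mean scaling. NDUFA4L2 (-1.94, SE 0.63, adjusted p = 0.0382, lower in 6 of 6) and COX4I2 (-1.23, SE 0.39, adjusted p = 0.0322, lower in 4 of 6) were the other calls in parotid, and neither was called without the libraries of animal 4. The NDUFA4L2 call was also lost with trimmed-mean scaling (-1.28, adjusted p = 0.0874).

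**Figure D4:**
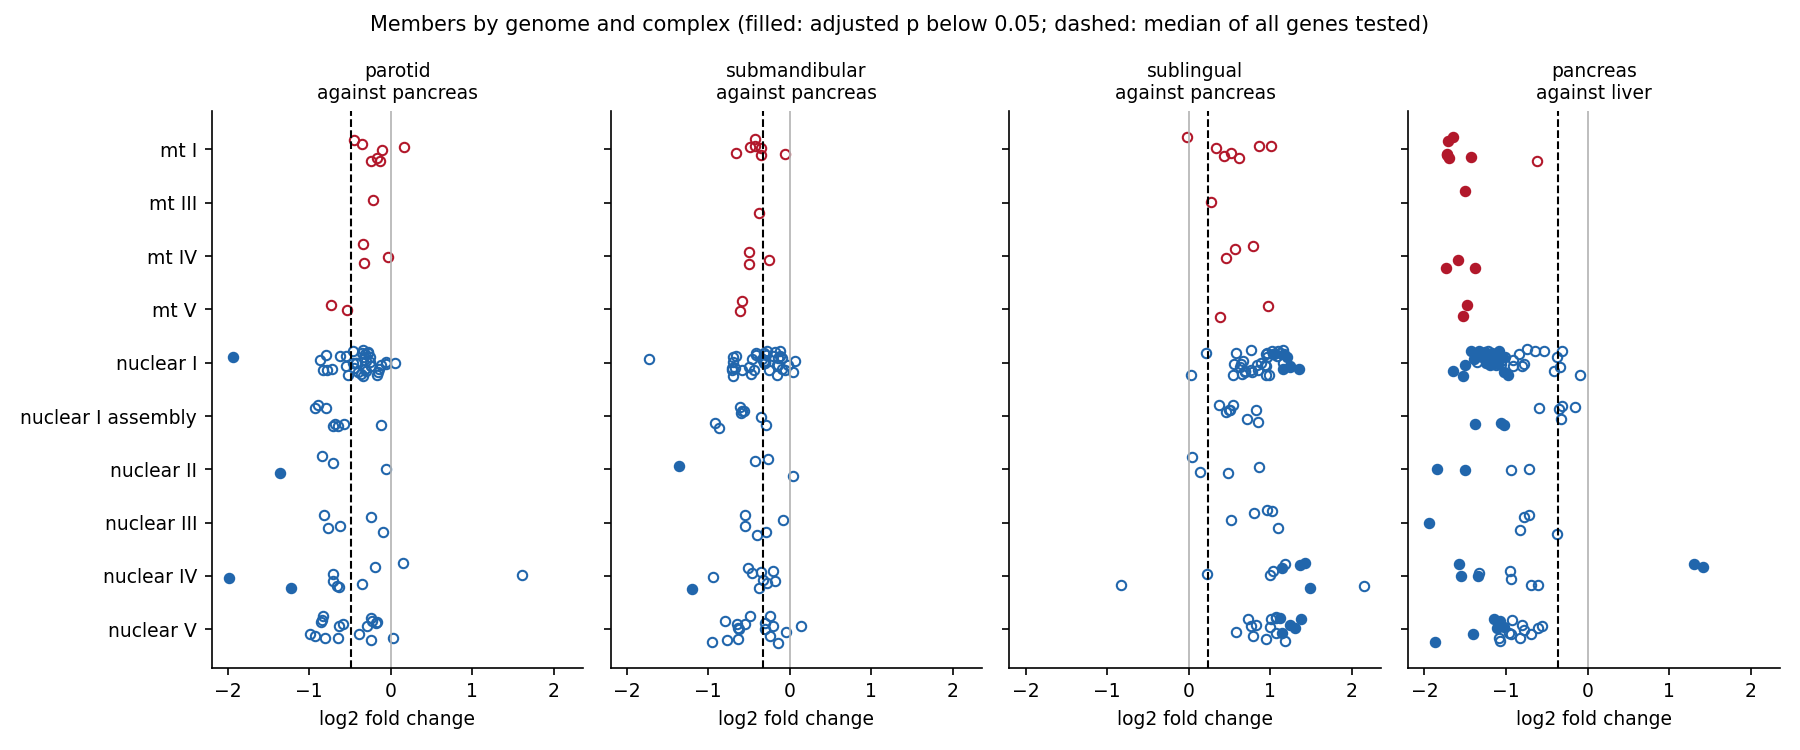
Log2 fold changes of the 95 genes in the 4 comparisons, grouped by genome and complex, with filled points at an adjusted p below 0.05 and the median of all genes tested as a dashed line. In pancreas against liver, 12 of 13 mitochondrial and 36 of 82 nuclear points are filled, and all but 2 of these lie below 0, on TPM as deposited (6 nuclear lower and 9 higher under quantile normalisation).

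Expressed relative to the summed nuclear members of the same library, 1 mitochondrial gene was called over the 4 comparisons when all libraries were fitted. Other pairs of tissues were not tested, and a lack of calls does not show that tissues are alike. In pancreas against liver 0 of 13 were called (0 at an unadjusted p below 0.05), with a median of -0.52. In parotid and submandibular gland against pancreas 0 were called as well, with medians of 0.36 and 0.08. In sublingual gland against pancreas ND4L was lower by 1.11 on the log2 scale (SE 0.44, adjusted p = 0.0344, lower in 5 of 6 animals), with a median of -0.57 for all 13. That call was lost without animal 1, 4 or 6. Without animal 6, 5 mitochondrial genes (COX1, ND1, ND4, ND4L and ND6) were lower in pancreas than in liver on this scale, and 1 (ND5) was higher in parotid than in pancreas.

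On this relative scale all genes shifted together, since 41.3% of all genes were called higher and 8.13% lower in pancreas against liver, and 2.38% higher and 54.5% lower in sublingual gland against pancreas. In parotid against pancreas 3.49% were higher and 2.68% lower, and in submandibular gland 2.83% and 2.03%. The subtraction moves every gene by the reverse of the difference in the nuclear sum. That difference was -1.07 in pancreas against liver and 1.09 in sublingual gland against pancreas (log2). A gene near 0 TPM in both tissues moves on this scale too, without a difference in its own level. Nuclear members that moved against their own sum were 11 higher and 4 lower in pancreas against liver, 11 lower in sublingual gland and 1 lower in parotid. COX4I2 (2.49, SE 0.28, adjusted p = 1.07e-07), COX7A2L (2.37, SE 0.36) and the assembly factor NDUFAF5 (0.92, SE 0.29, adjusted p = 0.0116) led the rises in pancreas. COX4I2 averaged 0.586 TPM in liver, and its change on TPM as deposited was 1.41. The 4 called lower were UQCRQ (-0.87, SE 0.21), ATP5PD (-0.80, SE 0.17), NDUFS8 (-0.58, SE 0.22) and COX7B (-0.50). In sublingual gland the calls with a lower value in 6 of 6 animals included COX7A2L (-1.92, SE 0.36, adjusted p = 0.000322), NDUFV3, an accessory subunit of the NADH-oxidising module of complex I (-0.88, SE 0.23), and the assembly factor NDUFAF2 (-0.72, SE 0.22). SDHC (-1.05, SE 0.42, adjusted p = 0.0366) and SDHB (-0.96, SE 0.28, adjusted p = 0.00891) were also called, each lower in 5 of 6 animals.

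Levels within a complex were uneven. By tissue median, 13 of 13 mitochondrial and 49 of 82 nuclear members were highest in liver, 32 nuclear members were highest in sublingual gland and 1 in pancreas. The lowest median was in parotid for 52 nuclear members, in submandibular gland for 24, in pancreas for 5 and in liver for 1. The same counts were not made over all genes, so they cannot be read as particular to these members. The 10 most abundant nuclear members made up 40.7 to 47.2% of the nuclear sum by tissue. SDHD averaged 1396 ± 418 TPM in liver, whereas SDHA, the flavoprotein subunit of the same complex, averaged 108 ± 46.2 TPM (SD, n = 6). SDHB and SDHC averaged 147 ± 50.1 and 117 ± 89.1 TPM. In complex I, NDUFA4 was highest and the iron-sulphur core subunit NDUFS1 among the lowest, with 959 ± 167 and 10.9 ± 6.07 TPM in liver. COX8A, a small subunit of complex IV, was highest in sublingual gland (1682 ± 684 TPM) and had 874 ± 235 TPM in liver. ATP5MD, a small ATP synthase subunit that helps form its dimers, had 1010.05 ± 469 TPM in sublingual gland, 807 ± 225 TPM in liver and 300 ± 287 TPM in parotid.

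Several subunits exist as a general and a tissue-restricted isoform. For subunits 6A and 7A no row was named COX6A1 or COX7A2, so those isoforms could not be set beside the restricted ones. COX6A2, the heart and skeletal muscle isoform of subunit 6A, had 59.4, 1.51, 1.68, 1.25, 2.84 and 776 TPM in parotid and 325, 0, 3.39, 11.6, 283 and 4.05 TPM in sublingual gland. The 4 high values belonged to the 4 libraries with the highest muscle marker sums, 9141 to 119705 TPM. In the other 26 libraries COX6A2 reached at most 14.5 TPM. The row COX7AH, listed by RefSeq as COX7A1 and known as the heart and muscle isoform of subunit 7A, was less restricted. Whether reads of COX7A2 were counted in it was not tested. In parotid COX7AH had 1982 TPM in animal 6 and 156 to 289 TPM in the other animals. In sublingual gland it had 994 and 1169 TPM in animals 1 and 5, against 264 to 637 TPM in the others. It was also present in all liver libraries, at 301 to 632 TPM. Neither gene was called in a comparison (COX6A2 at 1.61, adjusted p = 0.328, in parotid and 2.15, adjusted p = 0.273, in sublingual gland against pancreas).

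COX4I1, the general isoform of subunit 4, averaged 567 ± 77.8 TPM in liver and 662 ± 187 TPM in sublingual gland, and 369 ± 345 TPM in pancreas, 320 ± 298 TPM in submandibular gland and 261 ± 184 TPM in parotid (SD, n = 6). COX4I2 stayed below 24 TPM throughout. NDUFA4L2, a relative of NDUFA4 known from low oxygen and from vascular cells, had 70.2, 181 and 147 TPM in the submandibular, sublingual and pancreatic libraries of animal 4. Its range in the other animals was 1.95 to 5.73, 1.64 to 77.1 and 6.97 to 46.6 TPM. The fat and blood marker sums were raised in the submandibular and pancreatic libraries of animal 4 but not in its sublingual library, where fat markers summed to 153 TPM and blood markers to 53.0 TPM. Their part in these levels was not tested. ATP5MC1 and ATP5MC2 encode the same ring subunit of ATP synthase with different import sequences. They averaged 153 ± 14.0 and 163 ± 16.0 TPM in liver and 84.7 ± 44.9 and 124 ± 74.5 TPM in pancreas. ATP5IF1, the inhibitor that stops ATP synthase from running in reverse, averaged 493 ± 169 TPM in liver and 241 ± 133 TPM in pancreas and fell in pancreas by 1.11 (SE 0.39, adjusted p = 0.0339, lower in 6 of 6 animals), a call lost with trimmed-mean scaling.

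**Figure D5:**
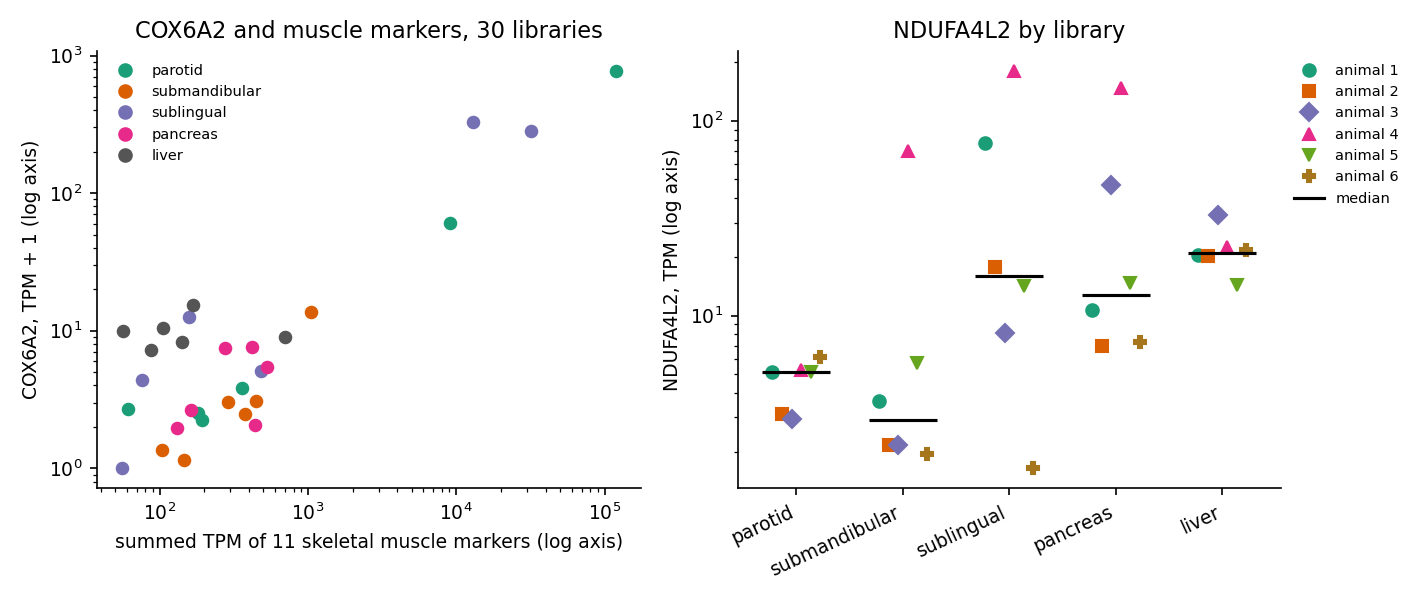
Left, COX6A2 (TPM + 1) against the summed TPM of 11 skeletal muscle markers in 30 libraries, both on log axes, with tissues by colour: 4 libraries have COX6A2 between 59.4 and 776 TPM and muscle sums of 9141 TPM or more. Right, NDUFA4L2 by library on a log axis with the tissue median as a bar, where animal 4 is highest in submandibular gland, sublingual gland and pancreas.

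Other genes of mitochondrial respiration were counted from lists in the same fits. Of 23 genes for copying, transcribing and processing mitochondrial DNA and RNA, 8 fell and 0 rose in pancreas against liver on TPM as deposited. That stood beside 23.6% of all genes lower. Relative to the nuclear sum 0 were lower and 3 higher, beside 8.13% and 41.3% of all genes. The 8 included POLRMT, the mitochondrial RNA polymerase (-1.43, SE 0.32, adjusted p = 0.00116), with a liver mean of 17.5 ± 2.15 TPM and a pancreas mean of 6.44 ± 3.58 TPM, and its partner TFB2M (-1.38, SE 0.31). TFAM, which packages mitochondrial DNA, was not among them, at 12.6 ± 7.41 TPM in liver and 7.15 ± 1.31 TPM in pancreas. In sublingual gland against pancreas 16 of these 23 were lower relative to the nuclear sum, beside 54.5% of all genes. On TPM as deposited 2 of the 23 rose there, beside 10.4% of all genes higher. The 2 were SLIRP (1.46), which stabilises mitochondrial messenger RNA, and FASTKD1 (0.74). None passed in parotid or submandibular gland on either scale.

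Among 9 regulators, PPARGC1A, a co-activator of mitochondrial gene programmes, fell in pancreas against liver (-1.65, SE 0.30, adjusted p = 0.000112), at 0.374 ± 0.0668 and 3.78 ± 2.08 TPM, and rose in sublingual gland against pancreas (1.11, SE 0.30, adjusted p = 0.0122). ESRRA, GABPB1 and PPARGC1B also fell in pancreas against liver, beside 23.6% of all genes lower. Relative to the nuclear sum 0 regulators were lower and 3 higher there, beside 8.13% and 41.3% of all genes. In sublingual gland 4 were lower on that scale, beside 54.5% of all genes. Of 78 mitochondrial ribosome genes 32 fell and 0 rose in pancreas, but 6 were lower and 17 higher relative to the nuclear sum. Of 22 assembly factors beyond NDUFAF 8 fell and 0 rose, against 1 lower and 2 higher on the relative scale. Of 13 citric acid cycle genes 4 fell and 0 rose, against 1 lower and 3 higher. These counts on TPM as deposited stand beside 23.6% of all genes lower. Those on the relative scale stand beside 8.13% of all genes lower and 41.3% higher. Fumarase (FH) fell most, from 55.7 ± 15.1 TPM in liver to 9.21 ± 7.59 TPM in pancreas (-2.66, SE 0.40). In sublingual gland 4 mitochondrial ribosome genes and 3 assembly factors rose on TPM as deposited, beside 10.4% of all genes. Relative to the nuclear sum 0 of either list were higher, beside 2.38% of all genes. On that scale 34 and 9 were lower, beside 54.5% of all genes. The cytochrome c gene CYCS and CYC1, its reductase subunit in complex III, were called in none of the 4 comparisons on TPM as deposited. Relative to the nuclear sum CYC1 was higher in pancreas than in liver (0.63, SE 0.27, adjusted p = 0.0495).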

How the data were processed

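The deposited table holds TPM for 30 libraries, 6 animals by 5 tissues, and the authors made it with kallisto, per the labels, in which FastQC, MultiQC, cutadapt, HISAT2, SAMtools, featureCounts and DESeq2 are also named. Versions, genome build, strand setting and read depth are not given in the sources used here. Each column sums to 1000000, so a value is a share of its library, the precision behind it is unknown, and no count test was run. All 30 columns were matched to samples by name, and 0 were left unused.

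The filter kept genes that reached 1 TPM in 6 or more libraries. The deposited TPM were converted to log2(TPM + 1), with a pseudocount of 1, and fitted with limma 3.58.1 (R 4.3.3) over all 30 libraries with tissue and animal as terms, two-sided, with Benjamini-Hochberg adjustment per comparison. A second fit subtracted log2 of the nuclear sum. Animal numbers in the labels pair the libraries: same-animal libraries deviated together (mean correlation 0.161, against -0.0186 between animals). No 2 libraries were identical (highest correlation 0.979). On simulated data with 200 changed genes of 13550, the 4 comparisons recovered 77.2 to 83.2% of changes of 2 on the log2 scale. For changes of 3 it was 93.9 to 97.2%, with 3.33 to 5.88% false calls. The simulated noise was independent, without animal effects or libraries that stood apart, and changed genes had a mean log2 level above 3. Changes smaller than 2, such as the median changes given above, were not simulated, so these rates do not cover them.

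Members and lists were chosen with earlier results of these data known. Named were the 13 mitochondrial genes, paired isoforms with ATP5IF1, the most abundant nuclear gene of each complex, and, per comparison and scale, up to 3 called genes each way with 1 direction in all 6 animals. Other called genes, and genes of the other lists, were named after their values were seen. RefSeq (T2T-MMU8v2.0) held 80 of the 95 symbols and was used for names only. Alternatives were trimmed-mean and quantile scaling, other pseudocounts and filters, other sets of libraries and no animal term. The labels do not give more than 1 sample of a tissue per animal, so the spread includes both animal and sampling differences.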

Additional observations from a re-analysis of the deposited data

Results flagged for a closer look

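In 8 of 40 sets of 6 libraries, 1 library lay far from the other 5 on the log2 scale, by a gap that took up most of the range of the set. If the sets were independent, chance would give about 1 in 20, or 2 of 40. They were not, since the single genes are part of the nuclear sum. Most flags also fell in the parotid of animal 6 and the submandibular gland of animal 4. The 8 can therefore not be set against the 2. The nuclear sum was 24970.2 TPM in the parotid of animal 6, with the next library at 6400 TPM, and 23591.4 TPM in the submandibular gland of animal 4, with the next at 6243 TPM. COX7AH stood at 1982.2 TPM in that parotid (next 289 TPM) and at 570.735 TPM in that submandibular gland (next 224 TPM). The same submandibular library was highest for COX4I2 (6.6322 TPM, next 1.34), NDUFA4L2 (70.2098 TPM, next 5.73) and COX7A2L (100.604 TPM, next 31.0). COX7A2L was lowest in the pancreas of animal 2, at 24.82 TPM, with the next at 71.3 TPM.

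In 1 of 30 comparisons by sex, all animals of each sex moved in opposite directions. The log2 mitochondrial sum of parotid minus submandibular gland averaged -0.27 in the 4 females and 1.04 in the 2 males, a difference of -1.31 (females minus males) that was not tested. The female mean includes animal 4, at -0.85, and the male mean animal 6, at 1.28, whose submandibular and parotid library, respectively, stood apart in tissue markers. The other 3 females lay between -0.16 and -0.00070, and the other male was at 0.80.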

How the results depend on the processing

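Of the recomputed values, 157 stayed within the limits set for a change (counts within 1.5 times, differences within 1 SD), 57 moved and 2 turned. Under quantile normalisation the nuclear genes called were 5 in parotid against pancreas (3 higher, 2 lower) and 15 in pancreas against liver (9 higher, 6 lower), both turned in balance, with 7 in sublingual and 1 in submandibular gland, and 3 mitochondrial genes each in parotid and sublingual gland. With trimmed-mean scaling the nuclear counts were 2, 0, 28 and 26 in parotid, submandibular gland, sublingual gland and pancreas against liver. Fitting 12 libraries gave 2, 8 and 0 in the glands, and no filter gave 1 in submandibular gland. Without the replicate block the nuclear counts were 2, 2, 11 and 30. Without the 2 libraries of animal 4 they were 2, 8, 64 and 70, and 4 mitochondrial genes were called in sublingual gland. Without 5 libraries (also parotid of animal 6 and sublingual glands of animals 1 and 5) they were 31, 29, 53 and 77, and 1 mitochondrial gene was called in sublingual gland. Leaving out each animal gave nuclear counts of 1 to 34, 0 to 7, 0 to 58 and 11 to 68, and mitochondrial counts of 0 to 4 in sublingual gland and 6 to 12 in pancreas against liver. Relative to the nuclear sum it gave 0 to 1 in parotid, 0 to 1 in sublingual gland and 0 to 5 in pancreas against liver, and a median reference gave 0 in sublingual gland. Where leaving out a library lowered a count, fewer samples were fitted, and otherwise the cause was not tested. The unknown depth limits what can be said of genes near 1 TPM, such as COX4I2.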
